A study of Mus musculus with 16 samples.

Results

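The genes described here are 10 Wnt ligands, Wnt3, Wnt3a, Wnt4, Wnt5a, Wnt5b, Wnt7b, Wnt10a, Wnt10b, Wnt11 and Wnt16, chosen by gene symbol among the probe sets of a whole-genome array. They had 16 probe sets of the 45037 non-control probe sets on the array, and 10 of its 18193 genes. For 7 of the 10 genes at least 1 probe set, 12 in all, passed a filter on low values (2 or more arrays with an intensity above the table's median of 34.4), as did 12580 genes on 25563 probe sets of the whole array. Each of the 7 had at least 3 arrays above that level in either cohort. Wnt3, Wnt10b and Wnt16 did not pass the filter and were not tested.

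Wnt proteins are secreted, lipid-modified ligands that bind Frizzled receptors. With the co-receptors Lrp5 and Lrp6 they stabilise β-catenin, which then acts with TCF and LEF factors in the nucleus, and some ligands act instead through Ror and Ryk receptors without β-catenin. In skin, Wnt signals through β-catenin are needed to form hair follicles and to start their growth phase, anagen.

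Skin RNA was measured on 16 arrays, from 2 cohorts of iK5-TERT mice at 0, 6, 12 and 24 h, with 2 mice in each cohort. All mice carried K5tTA and tetop-TERT, so that the telomerase protein TERT was made from a transgene in cells with an active keratin 5 promoter (basal epidermis and outer root sheath) unless doxycycline was present. All had received doxycycline in drinking water at 5 mcg/ml during development, up to a day between 10 and 21 after birth, and were used at day 60, with follicles labelled as in anagen. TERT-off mice were injected with doxycycline at 8 µg per g body weight and TERT-on mice with PBS. The labels mark the TERT-off biopsies at 0 h as injected too, although 0 h is the time of injection. Each array held a dorsal biopsy of 3 cm2 with subcutaneous fat removed, and arrays of 1 cohort with the same replicate number were taken as serial biopsies of 1 mouse. Such a biopsy mixes epidermis, follicle and dermis, and fewer cells of a type cannot be told apart from less RNA per cell.

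The libraries were not alike before treatment. At 0 h, hair shaft keratin intensities summed to 163 in TERT-off replicate 1 and to 5754 to 19782 on the other 3 arrays. The anagen label of this mouse was thus not borne out by its hair shaft keratins. Of the hair matrix genes at 0 h, Shh had 224 in this mouse and 238 in TERT-off replicate 2. Msx2 (83.1 against 469), Dlx3 (136 against 740), Hoxc13 (72.9 against 462), Foxn1 (28.6 against 189) and Ovol1 (175 against 426) were lower. Results for the ligands, though not for the cell type markers, are therefore also given without this mouse. The targeted gene, Tert, had intensities of 185 and 199.9 in TERT-off skin and 357 and 216 in TERT-on skin at 0 h. It was then 8.32 to 16.1 in TERT-off and 22.6 to 64.6 in TERT-on skin over 6 to 24 h, lower than at 0 h in both cohorts, with a log2 difference between the cohorts of −1.76 (adjusted p = 0.00278 from limma). Gapdh probes at the 5′ end had 0.0599 times the signal of those at the 3′ end in TERT-on replicate 1 at 0 h, against 0.977 to 1.12 on the other 15 arrays. Comparisons that use 0 h are given without that array as well. Basal and suprabasal keratinocyte markers were present on all arrays, with a summed intensity of 14813 to 24640 in TERT-off and 17437 to 24592 in TERT-on skin over 6 to 24 h, and 0 of 5 were called.

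The sequences below are promoter stretches of Wnt11 and Wnt5b. They are shown because, among the ligands called, these have a match to the TCF/LEF motif (searched on both strands with the last pair of letters each A or T: CTTTGAA with its variant CTTTGAT, and CTTTGTA with its variant CTTTGTT) before a listed start. RefSeq windows of 300 bases (GRCm38.p6) were given for 10 starts of 7 ligands, and 3 of these windows, of Wnt3, Wnt5b and Wnt11, held a match. Of all 32851 windows, 16.9% held one. Each line gives 150 bases, 5′ to 3′ on the gene's strand, with the match in capitals. The Wnt11 stretch, on the plus strand, is chr7:98834934-98835083 and ends just before the first base of the annotated gene, with the match 23 bases before that base. The Wnt5b stretch, on the minus strand, is chr6:119449387-119449536 and lies before the third of 3 listed starts, inside the annotated gene, with the match 71 bases before that start. A match describes letters and not binding. Wnt5a, Wnt7b and Wnt10a had no window among these.
Wnt11: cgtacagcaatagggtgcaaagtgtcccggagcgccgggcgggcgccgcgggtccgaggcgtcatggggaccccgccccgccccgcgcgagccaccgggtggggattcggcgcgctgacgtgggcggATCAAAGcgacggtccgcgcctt
Wnt5b: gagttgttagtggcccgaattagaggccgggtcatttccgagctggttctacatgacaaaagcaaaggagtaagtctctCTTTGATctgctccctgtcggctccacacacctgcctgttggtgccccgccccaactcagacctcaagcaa

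Over 6 to 24 h, 5 of the 7 ligands tested were lower in TERT-off skin than in skin of TERT-on mice and 0 were higher (limma, adjusted p under the threshold of 0.05). They were Wnt10a, Wnt4, Wnt5a, Wnt11 and Wnt5b. Of all 12580 genes tested, 12.6% were lower and 16.9% higher. The median log2 difference, TERT-off minus TERT-on, was −0.72 over the 7 ligands and 0.04 over all genes. For 4 of the 7 ligands tested, the highest of the 6 TERT-off arrays was under the lowest of the 6 TERT-on arrays, which held for 4.83% of all genes. These were Wnt10a, Wnt4, Wnt11 and Wnt5b. This uses the same arrays as the calls and adds no separate evidence. The 5 were also lower without TERT-off replicate 1, and without TERT-off replicate 2. Each of these 2 fits has 1 TERT-off array at each time and takes its spread from the TERT-on arrays. They cannot show how far TERT-off mice differ. Without TERT-on replicate 1, Wnt10a alone was called, and without TERT-on replicate 2 none was, with the directions as before. With 2 mice against 2, an exact permutation test over mice cannot go below p = 0.333, so the p-values rest on the spread between arrays of all groups.

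**Figure D1:**
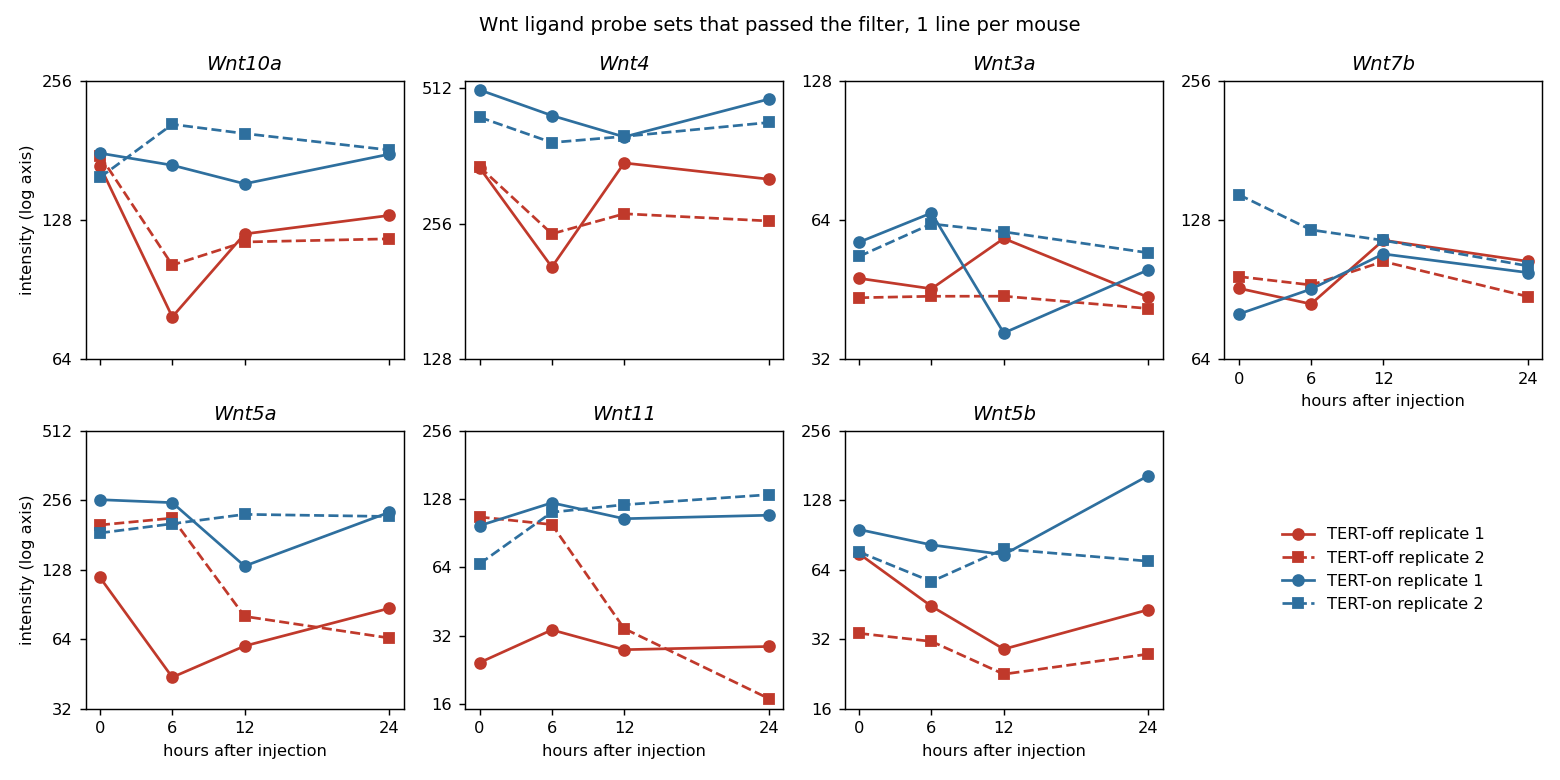
Intensity on a log axis against hours after injection for the 7 Wnt ligands that passed the filter, 1 line per mouse (red, TERT-off; blue, TERT-on; circles, replicate 1; squares, replicate 2) and 1 probe set per gene. The red lines of Wnt10a lie with the blue ones at 0 h and below them from 6 h on, those of Wnt4 lie below at all times, and those of Wnt7b mix with the blue ones.

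Wnt10a and Wnt4 are ligands of keratinocytes in skin, and Wnt10a acts through β-catenin in hair and tooth development. Wnt10a (chromosome 1, 74792019 to 74804176 in GRCm38.p6) had intensities of 168, 79.1, 119.5 and 131 in TERT-off replicate 1 at 0, 6, 12 and 24 h. TERT-off replicate 2 had 177, 102, 115 and 117. TERT-on replicate 1 had 179, 168, 153 and 178, and TERT-on replicate 2 had 158, 206, 197 and 182. The cohorts overlapped at 0 h, and from 6 h on each TERT-off array was lower than each TERT-on array. The log2 difference was −0.72 over 6 to 24 h (standard error 0.11, adjusted p = 0.00326 from limma) and −1.05 at 6 h (standard error 0.18, adjusted p = 0.0303), and 0.03 at 0 h (95% interval −0.37 to 0.43). Without the TERT-on array of low Gapdh ratio the difference at 0 h was 0.14 (95% interval −0.35 to 0.63).

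Wnt10a was below its own level at 0 h on all later arrays of both TERT-off mice. Relative to its own 0 h array, it changed by −1.08, −0.49 and −0.35 on the log2 scale at 6, 12 and 24 h in TERT-off replicate 1 and by −0.79, −0.62 and −0.60 in TERT-off replicate 2. In TERT-on replicate 1 the same changes were −0.09, −0.22 and −0.01, and in TERT-on replicate 2 they were 0.38, 0.32 and 0.20. Neither the change within TERT-off mice (−0.66, standard error 0.14, adjusted p = 0.0843) nor its difference from the change in TERT-on mice (−0.75, standard error 0.20, adjusted p = 0.294) passed the test. The changes of TERT-on replicate 1 are taken from the array of low Gapdh ratio, and without that array the difference of the changes was −0.86 (standard error 0.24, adjusted p = 0.426).

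Wnt4 (chromosome 4, 137277635 to 137299501) had intensities of 341, 205, 349.5 and 322 in TERT-off replicate 1 and 343, 243, 269.5 and 259.8 in TERT-off replicate 2. It had 508, 445.5, 399 and 485 in TERT-on replicate 1 and 442, 388, 400.3 and 429.9 in TERT-on replicate 2. Each TERT-off array was below each TERT-on array, at 0 h as well. The log2 difference was −0.65 over 6 to 24 h (standard error 0.11, adjusted p = 0.00385 from limma), −0.90 at 6 h (adjusted p = 0.0379) and −0.47 at 0 h (95% interval −0.85 to −0.09, adjusted p = 0.562). At 0 h it was −0.38 without the array of low Gapdh ratio (95% interval −0.85 to 0.09). A second probe set of Wnt4 gave −0.66 over 6 to 24 h (adjusted p = 0.0066) and −1.01 at 6 h (adjusted p = 0.0417). Relative to 0 h, Wnt4 changed on the log2 scale by −0.73 and −0.49 at 6 h in TERT-off mice and by −0.19 in both TERT-on mice. At 12 h the changes were 0.04 and −0.35 in TERT-off mice and −0.35 and −0.14 in TERT-on mice, and at 24 h they were −0.08 and −0.40 in TERT-off mice and −0.07 and −0.04 in TERT-on mice. The mice of both cohorts thus overlapped at 12 h, and over 6 to 24 h the difference of the changes was −0.18 (95% interval −0.59 to 0.24, adjusted p = 0.691). Without the array of low Gapdh ratio this difference was −0.26.

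Wnt5a and Wnt11 are known chiefly for signals that do not use β-catenin, and Wnt5a is a ligand of Ror2. Wnt5a (chromosome 14, 28504543 to 28527448) had intensities of 118, 43.8, 59.8 and 87.1 in TERT-off replicate 1, and 199.7, 214, 80.4 and 64.8 in TERT-off replicate 2. It had 257, 249.5, 133 and 227 in TERT-on replicate 1 and 184, 202, 222 and 217 in TERT-on replicate 2. TERT-off replicate 1 was low on every array, while TERT-off replicate 2 lay within the TERT-on range at 0 and 6 h and below it at 12 and 24 h. The log2 difference over 6 to 24 h was −1.36 (standard error 0.35, adjusted p = 0.0161 from limma), and −0.98 without TERT-off replicate 1. The other 3 probe sets of Wnt5a gave −1.62, −1.63 and −1.30 (adjusted p = 0.0245, 0.0118 and 0.0281).

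Wnt11 (chromosome 7, 98835084 to 98854747), whose upstream stretch is printed above, had intensities of 24.4, 34.0, 27.8 and 28.8 in TERT-off replicate 1. TERT-off replicate 2 had 107, 98.8, 34.5 and 17.0. It had 97.7, 123, 105 and 109 in TERT-on replicate 1 and 66.4, 112, 121 and 134 in TERT-on replicate 2. Thus 1 TERT-off mouse was low from the start and did not fall further, and the other was above both TERT-on arrays at 0 h, just below them at 6 h and far below at 12 and 24 h. The log2 difference over 6 to 24 h was −1.78 (standard error 0.37, adjusted p = 0.00785 from limma), and −1.59 without TERT-off replicate 1. In TERT-off replicate 2, Wnt11 changed relative to 0 h by −0.11, −1.63 and −2.65 on the log2 scale at 6, 12 and 24 h, and Wnt5a by 0.10, −1.31 and −1.62. In TERT-off replicate 1 these changes were 0.48, 0.19 and 0.24 for Wnt11, and −1.43, −0.98 and −0.44 for Wnt5a. On its other probe sets Wnt5a changed by −0.92, 0.45 and −0.96 at 24 h in this mouse, so that the sign was not the same on all.

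Wnt5b, a close relative of Wnt5a, was measured by a pair of probe sets that gave opposite signs. On the one of higher mean signal (gene on chromosome 6, 119432531 to 119544824) it had 74.96, 44.4, 29.0 and 42.9 in TERT-off replicate 1 and 33.9, 31.3, 22.6 and 27.6 in TERT-off replicate 2. It had 95.5, 81.9, 74.4 and 163 in TERT-on replicate 1 and 76.3, 56.9, 78.6 and 69.6 in TERT-on replicate 2. Each TERT-off array was below each TERT-on array over 6 to 24 h, and the log2 difference was −1.36 (standard error 0.26, adjusted p = 0.00569 from limma). The other probe set ranged over 17.1 to 52.8 in TERT-off and 13.6 to 40.0 in TERT-on skin, with 4 of 16 arrays above the filter threshold, and gave 0.72 (95% interval −0.16 to 1.60, adjusted p = 0.207). With the mean of both probe sets the difference was −0.32 (adjusted p = 0.325), so that the call of Wnt5b rests on the choice of probe set.

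**Figure D2:**
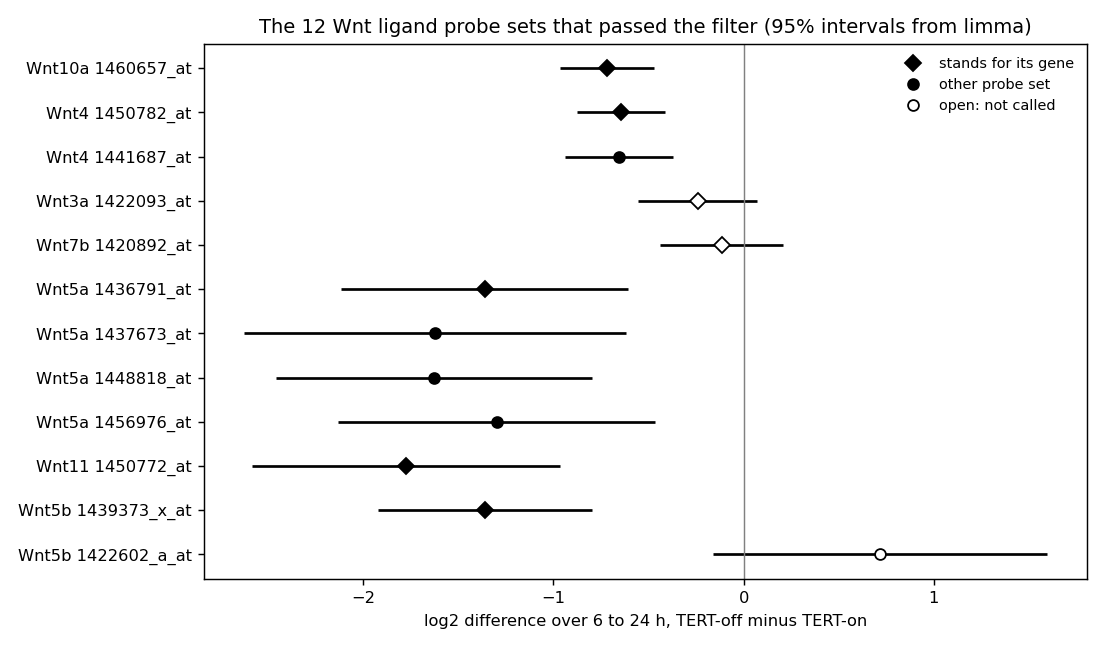
Log2 difference over 6 to 24 h, TERT-off minus TERT-on, with 95% intervals from limma, for the 12 Wnt ligand probe sets that passed the filter (diamonds, probe set that stands for its gene; circles, other probe sets; open, not called). The 4 probe sets of Wnt5a run from −1.63 to −1.30 and the pair of Wnt4 at −0.65 and −0.66, while those of Wnt5b lie at −1.36 and 0.72.

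Wnt3a and Wnt7b, both ligands that act through β-catenin, were not called in any comparison. Wnt3a (chromosome 11, 59248036 to 59290751) ranged over 41.2 to 58.4 in TERT-off and 36.5 to 66.3 in TERT-on skin over 6 to 24 h, with a median of 43.8 in TERT-off and 57.4 in TERT-on skin. The groups overlapped through 1 array of each: the highest TERT-off value was that of replicate 1 at 12 h, and the lowest TERT-on value that of replicate 1 at 12 h. The log2 difference was −0.24 (95% interval −0.55 to 0.07, adjusted p = 0.231 from limma). It was largest at 6 h, at −0.53 (95% interval −1.04 to −0.03, adjusted p = 0.209). Wnt7b (chromosome 15, 85535437 to 85581821) ranged over 84.3 to 116 in TERT-off and 90.8 to 122 in TERT-on skin, with a log2 difference of −0.12 (95% interval −0.44 to 0.21, adjusted p = 0.593). A second probe set of Wnt7b, at 2.06 to 28.0 on the 16 arrays, did not pass the filter.

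The 3 ligands under the filter had no array above the threshold of 34.4. The Wnt3 probe set, for a ligand of follicle epithelium that acts through β-catenin, ranged over 3.90 to 14.4 in TERT-off and 6.55 to 16.3 in TERT-on skin over 6 to 24 h. Wnt10b, also a β-catenin ligand, was between 1, the lowest value in the table, and 2.42 on 14 arrays and was empty on 2. Wnt16 ranged over 5.49 to 25.9 in TERT-off and 7.54 to 20.1 in TERT-on skin over 6 to 24 h. These values do not show that the ligands were absent, only that their probe sets were not above the level set here.

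By time, Wnt10a and Wnt4 were the 2 ligands called at 6 h, where 0.596% of all genes were lower in TERT-off skin. Both calls were lost without TERT-off replicate 1, and when either TERT-on mouse was left out. Fits with a mouse left out have 1 array of its cohort at 6 h, and the share of all genes called in them was not taken. At 12 h 0 ligands were called by limma (0.668% of all genes lower) and 5 of 7 were under an unadjusted p of 0.05, against 29.9% of all genes. At 24 h 0 were called (0.588% of all genes lower) and 5 of 7 were under an unadjusted p of 0.05, against 22.7% of all genes. The largest difference at a single time was that of Wnt11 at 24 h, a log2 difference of −2.45 with a standard error of 0.60 (adjusted p = 0.0625). At 0 h 0 ligands were called (0.00795% of all genes lower) and 1, Wnt4, was under an unadjusted p of 0.05, against 7.92% of all genes. Without the array of low Gapdh ratio 0 were called at 0 h, and the 1 under an unadjusted p of 0.05 was Wnt7b (−0.61, 95% interval −1.08 to −0.15), not Wnt4.

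The differences of Wnt10a, −1.05, −0.57 and −0.54 on the log2 scale at 6, 12 and 24 h, had their largest size at 6 h, and those of Wnt11, −1.02, −1.86 and −2.45, at 24 h. Subtracting the difference at 6 h from the one at 24 h gave 0.51 for Wnt10a (95% interval −0.03 to 1.06) and −1.43 for Wnt11 (95% interval −3.21 to 0.35), and 0 ligands were called for it by limma (0.215% of all genes in either direction) or had an unadjusted p under 0.05, against 10.4% of all genes. Within TERT-off mice, 0 ligands were called for the change from 0 h (0.135% of all genes lower), and 2, Wnt10a and Wnt4, were under an unadjusted p of 0.05, against 17.8% of all genes. Within TERT-on mice 0 were called (0.143% of all genes lower), and 0 were under an unadjusted p of 0.05, against 19.6% of all genes. For the difference between these changes 0 were called (0% of all genes lower), and Wnt10a alone was under an unadjusted p of 0.05, against 14.3% of all genes. Without the array of low Gapdh ratio these counts of calls stayed at 0, and 1 ligand, Wnt7b, was under an unadjusted p of 0.05 for the change within TERT-on mice (−0.44, 95% interval −0.84 to −0.04).

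**Figure D3:**
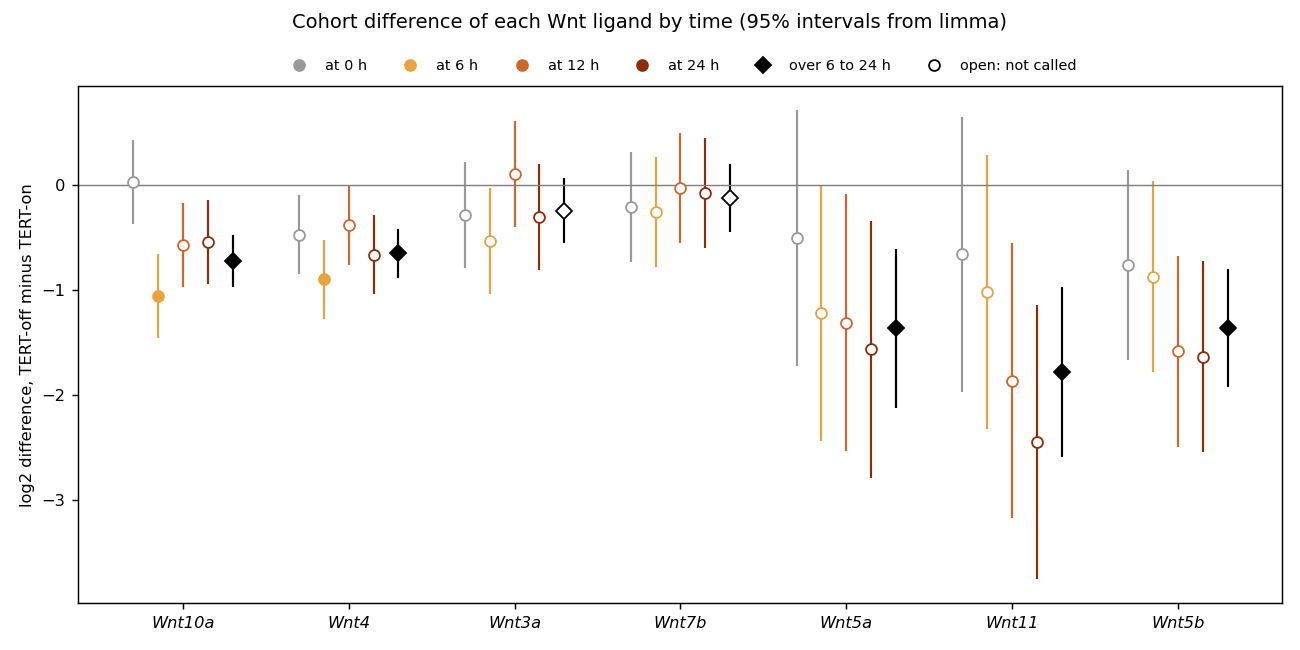
Log2 difference, TERT-off minus TERT-on, of the 7 Wnt ligands at 0, 6, 12 and 24 h (circles) and over 6 to 24 h (black diamonds), with 95% intervals from limma; filled symbols were called. Wnt10a is at 0.03 at 0 h and at −1.05 at 6 h, whereas Wnt11 goes to −2.45 at 24 h with a wide interval.

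Markers of the hair shaft, matrix and inner root sheath were lower along with the ligands. Over 6 to 24 h, 7 of 7 hair shaft genes, 5 of 6 hair matrix genes and 6 of 7 inner root sheath genes were lower in TERT-off skin. The summed intensity of hair shaft genes was 64.2 to 15946 in TERT-off and 4772 to 21265 in TERT-on skin. Matrix genes summed to 419 to 2824 in TERT-off and 1767 to 3077 in TERT-on skin, and inner root sheath genes to 1333 to 20774 in TERT-off and 19981 to 29827 in TERT-on skin. By mouse, the mean log2 intensity of the 6 matrix genes in TERT-off replicate 2 was 8.58, 8.77, 6.27 and 6.06 at 0, 6, 12 and 24 h, and in TERT-off replicate 1 it was 6.62, 5.17, 5.42 and 5.88. The fall between 6 and 12 h in TERT-off replicate 2 was thus seen in matrix genes, Wnt11 and Wnt5a on the same arrays, whereas Wnt10a and Wnt4 were already lower at 6 h in that mouse, with matrix genes near their 0 h level. In TERT-off replicate 1 the mean of the matrix genes and Wnt10a were both lowest at 6 h and partly back at 12 and 24 h. The matrix genes did not move alike in this mouse. Msx2, Foxn1 and Shh were lowest at 6 h, Hoxc13 at 12 h (31.2) and Dlx3 at 24 h (99.6), while Ovol1 was highest at 6 h (253). Their summed intensity was lowest at 12 h (419). Of 5 genes of the outer root sheath and bulge, a compartment with an active keratin 5 promoter, 1, Sox9, was lower (log2 difference −0.78, adjusted p = 0.0173 from limma) and 1, Cd34, higher (1.12, adjusted p = 0.00888). Their summed intensity was 3713 to 6239 in TERT-off and 2809 to 4506 in TERT-on skin. Of 6 dermal papilla genes 1, Corin, was lower and 1, Prom1, higher, with a summed intensity of 220 to 544 in TERT-off and 289 to 561 in TERT-on skin. In the other direction, 5 of 6 dermal fibroblast genes, 5 of 5 neutrophil genes and 5 of 5 macrophage genes were higher in TERT-off skin. Fibroblast genes summed to 19382 to 29831 in TERT-off and 13240 to 20548 in TERT-on skin, and neutrophil genes to 1098 to 9269 in TERT-off and 369.8 to 999.7 in TERT-on skin. Macrophage genes summed to 2959 to 7156 in TERT-off and 1757 to 3153 in TERT-on skin. Of the endothelial, skeletal muscle and adipocyte genes, 3 of 4, 1 of 4 and 1 of 3 were higher. Where a list had 1 gene called in a direction, its count cannot be told apart from the shares of all genes (12.6% lower and 16.9% higher). The part of these changes in the ligand values was not tested.

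**Figure D4:**
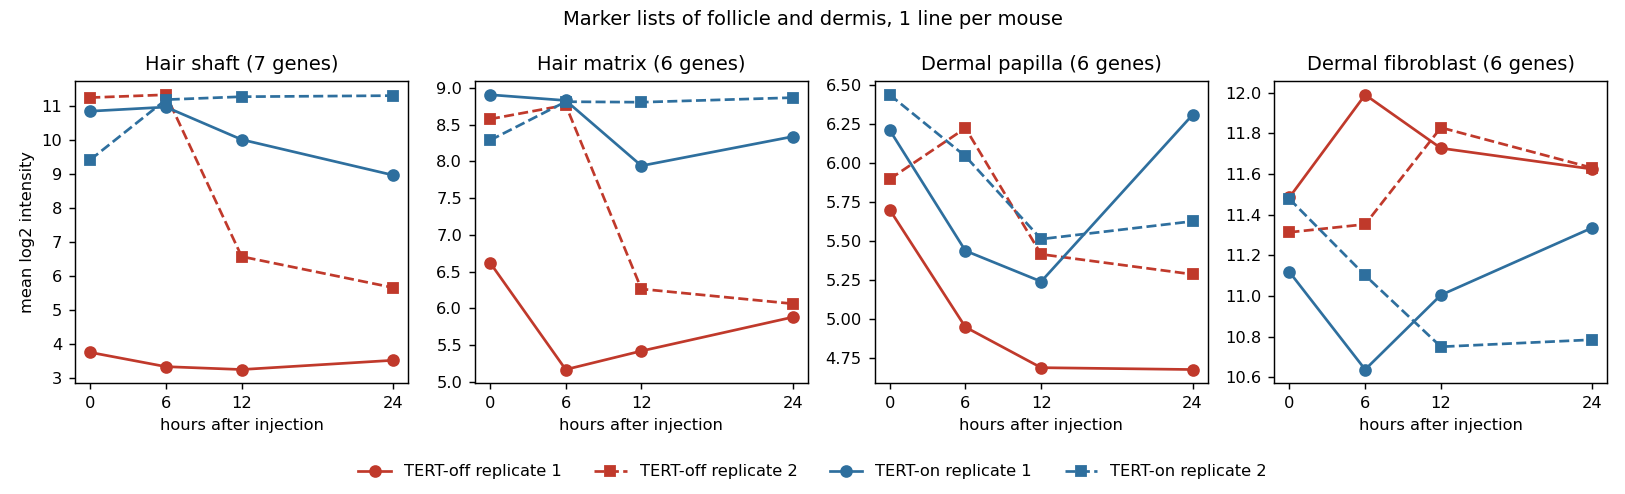
Mean log2 intensity of hair shaft, hair matrix, dermal papilla and dermal fibroblast markers against hours after injection, 1 line per mouse (red, TERT-off; blue, TERT-on). Matrix genes in TERT-off replicate 2 are at 8.77 at 6 h and 6.27 at 12 h, while hair shaft and matrix genes in TERT-off replicate 1 are low from 0 h on.

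The arrays that were high or low in 1 ligand were in part those of the next. Over the 16 arrays, which come from 4 mice and share cohort and time, Pearson's r of log2 intensity between the 5 ligands called ran from 0.55 for Wnt5b with Wnt11 to 0.87 for Wnt5a with Wnt11. It was 0.86 for Wnt4 with Wnt10a, 0.77 for Wnt5a with Wnt10a and for Wnt4 with Wnt5b, 0.72 for Wnt4 with Wnt5a and 0.61 for Wnt10a with Wnt11. By likeness to Wnt5a, Wnt11 was in place 359 of 12303 genes, and by likeness to Wnt10a, Wnt4 was in place 39. These values are a description with no test. Among all genes compared, the 3 most like Wnt10a were Nudc (0.96), Zfp280b (0.91) and Lrfn4 (0.91), and those most like Wnt4 were Ccdc25 (0.96), Bub3 (0.90) and Ppil1 (0.89). For Wnt5a they were Golga7b (0.98), Lzts1 (0.97) and Kif26a (0.97), for Wnt11 Cpm, Ephb3 and AU018091 (0.98 each), and for Wnt5b Fen1 (0.90), Cdca5 (0.89) and Drosha (0.87).

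Of 66 other components of the pathway, 52 were tested over 6 to 24 h. In TERT-off skin 14 were lower and 3 higher, where 12.6% of all genes were lower and 16.9% higher. These are differences between cohorts over 6 to 24 h and not changes from 0 h. The 3 called higher include Wnt2, which passed the filter through TERT-off arrays alone. Of the pair that releases Wnt proteins from cells, Porcn, which attaches their lipid, was lower (log2 difference −0.49, adjusted p = 0.0365 from limma) and Wls, which carries them to the surface, had −0.33 (adjusted p = 0.099). Of 9 other Wnt ligands 4 passed the filter. Wnt2 was above its level on 5 TERT-off and 0 TERT-on arrays, so that it was tested only because it was high in TERT-off skin, and its values are given as a description. It had 51.5, 20.5, 59.0 and 43.2 in TERT-off replicate 1 and 21.1, 16.1, 71.9 and 45.0 in TERT-off replicate 2 at 0, 6, 12 and 24 h, against 19.7, 19.1, 10.9 and 14.8 in TERT-on replicate 1 and 23.8, 19.4, 17.2 and 18.7 in TERT-on replicate 2. TERT-off replicate 1 was thus high at 0 h already, at about its level at 12 and 24 h, and the cohorts overlapped at 0 and 6 h and were apart at 12 and 24 h. Wnt6, Wnt7a and Wnt9a had −0.04, 0.24 and −0.14 and were not called.

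On the receiving side, 5 of 16 receptors and co-receptors were lower and 0 higher. Fzd5, a Frizzled receptor, had 71.9, 52.1, 41.8 and 47.5 in TERT-off replicate 1 and 241, 318, 55.5 and 58.8 in TERT-off replicate 2 at 0, 6, 12 and 24 h, against 316, 425.9, 393 and 291 in TERT-on replicate 1 and 211, 311, 375 and 333 in TERT-on replicate 2. TERT-off replicate 1 was low at 0 h already, and TERT-off replicate 2 was within the TERT-on values at 0 and 6 h and below them later. The log2 difference over 6 to 24 h was −2.35 (standard error 0.41, adjusted p = 0.00448 from limma) and −1.80 without TERT-off replicate 1. At 0 h it was −0.97 (95% interval −2.41 to 0.46). Ror2, the receptor of Wnt5a, was lower (log2 difference −0.86, standard error 0.29, adjusted p = 0.0473), and Fzd1, Lgr4 and Fzd6 were lower as well (−0.54, −0.44 and −0.40). The mean log2 intensity of Ror2, Fzd1, Lgr4 and Fzd6 at 0 h was 6.667, 9.009, 9.731 and 8.598 in TERT-off skin. In TERT-on skin it was 6.995, 9.606, 10.101 and 8.720. All of these thus had a lower mean in TERT-off skin at 0 h already, where 0 receptors were called. The co-receptor Lrp6 had −0.19 (adjusted p = 0.384). Of 3 R-spondins, ligands that enhance Wnt signals through Lgr receptors, 0 were called, and Rspo2, above the filter level on 1 TERT-off and 5 TERT-on arrays, had −1.03 (standard error 0.43, adjusted p = 0.1002).

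Of 9 extracellular antagonists 2 were lower and 2 higher. Sfrp2 and Sfrp4, secreted Frizzled-related proteins that bind Wnt ligands, were higher by 1.26 (standard error 0.28, adjusted p = 0.0093) and 1.19 (standard error 0.32, adjusted p = 0.0188). The mean log2 intensity of Sfrp2 was 6.51 at 0 h and 6.88 over 6 to 24 h in TERT-off skin. In TERT-on skin it was 6.98 and 5.63, so that most of the gap came with lower values in TERT-on skin. The TERT-on intensities of Sfrp2 at 0 h were 172 on the array of low Gapdh ratio and 92.5 on the other. For Sfrp4 the means were 6.66 and 8.12 in TERT-off and 6.71 and 6.93 in TERT-on skin. Sfrp1, of the same family, was lower (log2 difference −0.55, adjusted p = 0.0231). Notum, an enzyme that removes the lipid of Wnt proteins, was lower as well (−0.52, adjusted p = 0.00845). At 0 h the mean log2 intensity of Sfrp1 was 7.95 in TERT-off and 8.26 in TERT-on skin, and that of Notum 6.36 and 6.78. Within the cell, 2 of 9 relay components were lower, Gsk3a (−0.44) and Ctnnb1, which encodes β-catenin (−0.21, adjusted p = 0.0208). At 0 h the mean log2 intensity of Ctnnb1 was 11.83 in TERT-off and 12 in TERT-on skin, and that of Gsk3a 8.89 and 9.05. Of 3 TCF and LEF factors 0 were called. Of 6 genes that Wnt signals induce, most of them feedback inhibitors, 4 were lower. They were Nkd2 (−1.13, standard error 0.33), Ccnd1 (−0.83, standard error 0.24), Znrf3 (−0.70, standard error 0.22) and Rnf43 (−0.52, standard error 0.17). Their mean log2 intensity at 0 h was 8.26, 9.63, 7.80 and 6.15 in TERT-off and 8.84, 9.99, 7.87 and 6.27 in TERT-on skin. Axin2, which is widely read as a target of β-catenin, had 0.07 (standard error 0.11, adjusted p = 0.701). The count of 17 components called changed with each mouse left out, and no component was called when either TERT-on mouse was left out. The share of all genes called in those fits was not taken.

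**Figure D5:**
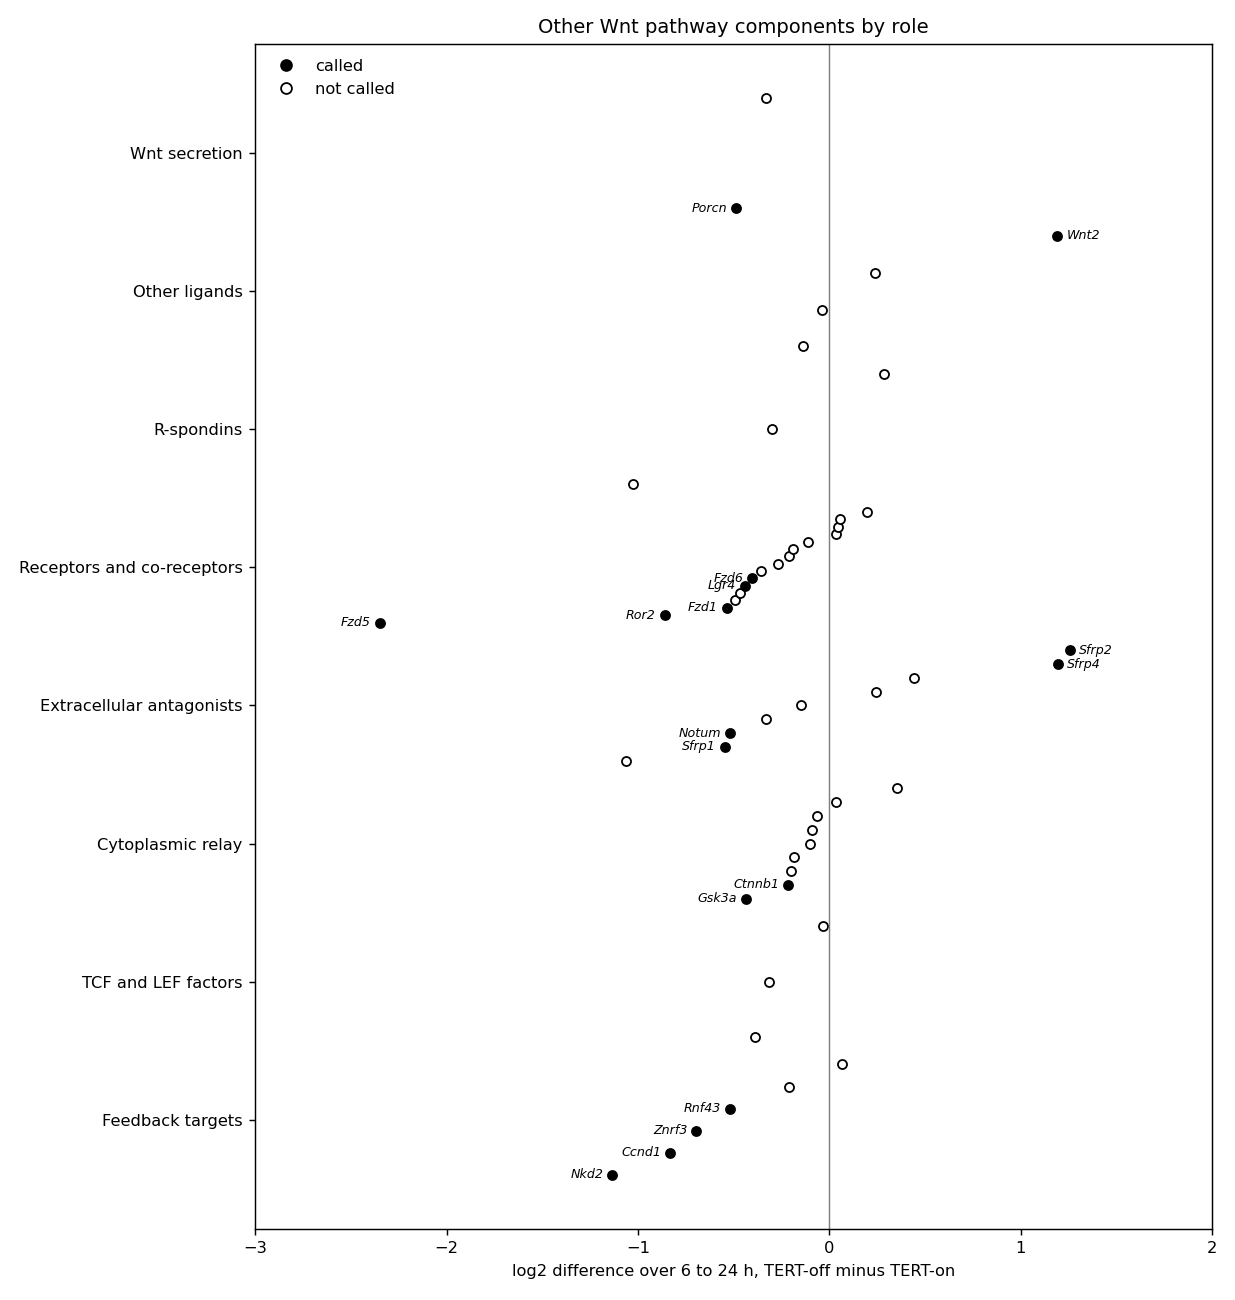
Log2 difference over 6 to 24 h, TERT-off minus TERT-on, of the 52 other Wnt pathway components tested, by role (filled, called; open, not called). Fzd5 at −2.35 is the lowest, and Sfrp2 (1.26), Sfrp4 (1.19) and Wnt2 (1.19) are the 3 called higher.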

How the data were processed

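Skin biopsies were hybridised to Affymetrix Mouse Genome 430 2.0 arrays. The authors deposited 1 linear intensity for each probe set and array, computed with dChip through invariant-set normalization and a model of perfect-match minus mismatch signal; the version and the genome build are not given in the sources used here. The platform annotation, with symbols updated by gene ID, gave 34958 of the 45101 probe sets 1 gene symbol, gave 932 several and left 9211 unnamed. The 64 control probe sets were removed. The table had 1425 empty cells and 5472 at its lowest value, 1.

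Values were floored at the table's 20th percentile (7.71) before taking log2. Probe sets above 34.4 on at least 2 arrays and with a value in every group were kept, a step that favours genes high in either cohort. The probe set of highest mean stood for its gene. All comparisons came from 1 limma fit (3.58.1 in R 4.3.3, statmod 1.5.0) of 8 group means with the mouse as a random block (correlation 0.0728) and a trend of the variance on intensity. All p-values are two-sided, and adjusted ones follow Benjamini and Hochberg over 25563 probe sets. The number of arrays limits the precision. The significance analysis of microarrays that the study used was not run. The fit was tested on simulated data. All ligands were named, with other pathway components by role. The members, lists and tests were chosen with earlier results of these data known. Alternatives covered the floor, filter, normalization, block, moderation, times, probe sets and each mouse left out.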

Additional observations from a re-analysis of the deposited data

How the results depend on the processing

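The count of 5 ligands lower over 6 to 24 h was 5 under 11 of the 13 settings other than leaving out a mouse. It was 4 with the mean of all probe sets of a gene, and 3 when the filter was set at the 75th percentile, where 3 ligands were tested. It ranged over 0 to 5 with 1 mouse left out. The 2 calls at 6 h became 1 without a filter and 0 to 4 with a mouse left out. At 12, 24 and 0 h, where none was called, leaving out a mouse gave 0 to 1, 0 to 2 and 0 to 1. The replicate number as a block gave 1 call at 12 h (Wnt5b) and 3 at 24 h (Wnt11, Wnt4 and Wnt5b), but the numbers do not pair mice across cohorts: same-numbered deviations correlated at −0.03, −0.13, 0.10 and 0.06 at 0, 6, 12 and 24 h. The replicate block changed no other count of ligands by over 1.5 times. The count of 17 pathway components became 7 without a filter, 9 with 1 mean per mouse, 7 with 6 and 12 h only, and 0 to 29 with a mouse left out. No ligand's direction reversed under these settings, but the other probe set of Wnt5b had the opposite sign (0.72 against −1.36). Without a mouse, each time has 1 array of its cohort, assumed to vary like the arrays of the other cohort. The share of all genes called was not taken for these fits or for the replicate block. Probe sets near the filter threshold, such as those of Wnt11 and Wnt5b in TERT-off skin, have the least signal over background. The causes were not tested.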
